A study of Mus musculus with 12 samples.

Results

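A set of 10 genes, neither axon guidance genes nor ion channels, was chosen by their higher counts in Purkinje cells (PCs) than in ventricular myocytes (VMs) of *Ncam-1* WT hearts and followed through all 12 libraries of the study. The genes were *Cntn2*, *Sbk3*, *Sbk2*, *Stard10*, *Map1a*, *Spock2*, *Pcp4*, *Sparcl1*, *Rabgap1l* and *4930513N10Rik*, 10 of the 48526 genes listed for each library. Because the WT libraries were used to pick the set, its excess in WT PCs over WT VMs is a description. A test is given only for KO PCs against KO VMs, where 9 of the 10 genes passed the filter on low counts. The rule for the choice did not use these 6 libraries. Earlier results of these data were known when the genes were chosen, so the test is not blind to the choice.

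Adult male mice that were either *Ncam-1* WT or homozygous *Ncam-1* knockout (KO) were the source of the cells, and each group also carried the *Cntn2*-EGFP reporter, a bacterial artificial chromosome transgene in which *Cntn2* regulatory DNA drives a green fluorescent protein. The KO line was kept on C57BL/6 and the reporter on CD1, so the crosses were of mixed background, and KO was constitutive rather than limited to the heart. Ventricles were digested, the cells were stained for 15 min with TMRM at 50 nM, and a sorter separated PCs (red and green) from VMs (red only), TMRM being a mitochondrial dye that marks myocytes. Each of the 4 groups (WT PC and VM, KO PC and VM) held 3 libraries made from amplified RNA. The labels do not state whether a library came from a single heart or from pooled hearts, so the spread between libraries may be in part technical.

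PCs are the myocytes of the ventricular conduction system, which carry the impulse from the bundle branches to the working ventricular muscle. They have few myofibrils, conduct fast, and express a set of genes that is otherwise better known from neurons. Several of the 10 genes are of that kind, among them the adhesion molecule *Cntn2*, the microtubule protein gene *Map1a* and *Pcp4*, which was named after the Purkinje neurons of the cerebellum, an unrelated cell type.

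Counts on genes ran from 13883427 to 42505705 per library, of which mitochondrial genes took 79.0% to 91.3%, leaving 1532393 to 6761356 counts on all other genes. *Ncam1*, the targeted gene, had normalized counts (raw counts scaled to a common effective library size) of 36.2, 66.3 and 67.0 in WT PCs and of 5.63, 0 and 6.66 in WT VMs, whereas no KO library held more than 1 raw count. WT PC 2 stood apart, since 63.9% of its read pairs were unaligned, where the remaining 11 libraries had 18.8% to 24.7%, and it had counts on 11847 genes, the fewest. Values without it are given where it moved a value of the set by more than 1.5 times. Of the 14 genes on a Purkinje and conduction list, the summed level was 1216 to 1853 in WT PCs and 744 to 756 in WT VMs, but 951 to 1506 in KO PCs against 864 to 1059 in KO VMs, ranges that overlap. Markers of other cells were also higher in PCs: summed endothelial markers reached 1157 to 1746 in WT PCs and 396 to 768 in WT VMs, and summed fibroblast markers 741 to 1676 and 231 to 421. None of the 8 markers on either list was at 0 throughout a group. Summed markers of neurons and Schwann cells were low but also higher in WT PCs, at 35.3 to 85.8 against 13.2 to 27.2 in WT VMs without overlap, whereas in KO hearts 5.05 to 36.9 in PCs overlapped 11.3 to 23.2 in VMs. On that list *Sox10*, *Th*, *Npy*, *Prph* and *Snap25* were at 0 in all 12 libraries, and the 2 markers tested in WT hearts had a median log2 fold change of 1.83. The part of these markers in the values of the 10 genes was not tested. Summed cardiomyocyte markers, at 347208 to 672596, overlapped among all 4 groups.

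Of the 10 genes, 9 are annotated as protein-coding, and the set lies on 7 chromosomes. *Sbk2* and *Sbk3* form a tandem pair on chromosome 7, both on the minus strand, at chr7:4940512-4964406 and chr7:4965260-4971168 of GRCm38, with 853 bases and 0 annotated genes between them. RefSeq windows of the 250 bases before the start site (GRCm38.p6) were at hand for 9 of the 10 genes, all but *Sparcl1*. The windows printed here 5′ to 3′ along the gene are those of the *Sbk3* and *Sbk2* pair, because neighbours with related products differed in level, and that of *Pcp4*, the only gene of the 10 with 0 counts in every VM library. Capitals mark a match to any of 5 binding motifs, searched on both strands. The letters searched for T-box factors were AGGTGT and those for the homeobox factor NKX2-5 were TNAAGTG. ETS factors were searched as GGAAGT, while GATA factors were searched as AGATAA. The E-box, bound by basic helix-loop-helix factors, was searched as CANNTG.
Sbk3 (chr7:4970962-4971211, minus strand): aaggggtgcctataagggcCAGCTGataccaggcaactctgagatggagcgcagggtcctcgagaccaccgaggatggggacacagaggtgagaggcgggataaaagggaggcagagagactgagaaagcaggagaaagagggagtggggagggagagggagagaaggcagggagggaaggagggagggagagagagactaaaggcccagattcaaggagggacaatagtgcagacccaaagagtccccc
Sbk2 (chr7:4964407-4964656, minus strand): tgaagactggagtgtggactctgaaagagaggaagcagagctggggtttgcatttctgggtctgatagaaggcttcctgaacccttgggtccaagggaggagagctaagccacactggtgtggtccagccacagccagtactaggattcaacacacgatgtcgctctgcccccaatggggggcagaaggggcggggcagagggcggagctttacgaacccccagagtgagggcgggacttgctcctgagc
Pcp4 (chr16:96467356-96467605, plus strand): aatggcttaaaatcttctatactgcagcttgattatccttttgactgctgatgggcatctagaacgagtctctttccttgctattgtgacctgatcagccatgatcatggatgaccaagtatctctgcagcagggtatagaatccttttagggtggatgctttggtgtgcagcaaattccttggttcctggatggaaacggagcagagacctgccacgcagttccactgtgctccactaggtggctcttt
The *Sbk3* window held a single E-box at -231, counted from the RefSeq start, and most of that window lies within the longer GENCODE gene model. The windows of *Cntn2* and *Rabgap1l* lie wholly within their GENCODE gene models, and those of *Map1a*, *Spock2* and *4930513N10Rik* in part. The windows of *Sbk2* and *Pcp4* held no match. Across the 9 windows, E-boxes were found in 3 (*Cntn2* at -96, *Sbk3*, and *Map1a* at -173 and -154), against 66.22% of all 32851 windows of this length, and an ETS match in 1 (*4930513N10Rik* at -141), against 19.74%. The T-box, NKX2-5 and GATA motifs, present in 11.83%, 10.06% and 9.988% of all windows, had no match in the 9. These are matches of letters in one short window each and describe no binding.

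In WT hearts, the contrast used to choose them, all 10 genes had their lowest PC library above their highest VM library. The same held for 7.29% of the 11822 genes tested in that contrast, and nothing is read from the count. Log2 fold changes of WT PCs over WT VMs ran from 1.34 for *Rabgap1l* to 7.06 for *Cntn2* among the 9 genes with counts in VMs. Without WT PC 2 that of *Sparcl1* went from 2.84 to 2.13 and that of *4930513N10Rik* from 2.96 to 2.28, while those of the other 7 genes moved by less. In KO hearts, 7 of the 10 genes again had every PC library above every VM library, against 8.66% of the 10779 genes tested, and 4 of the 9 genes tested were called higher by edgeR's quasi-likelihood test (adjusted p under 0.05 after Benjamini-Hochberg adjustment), against 0.863% of all genes tested. The median log2 fold change of the 9 genes was 2.01 in KO hearts, where that of all genes tested was 0.01. The 4 genes called were *Cntn2*, *Sbk3*, *Sparcl1* and *4930513N10Rik*. The regulatory DNA of *Cntn2* marked the sorted cells, so its excess describes the sort, yet it enters both the 4 of 9 and the median. *Spock2*, with a mean normalized count of 2.06 in KO VMs, passed the filter on low counts only through its KO PC libraries. It too enters the 9 genes and the median.

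**Figure D1:**
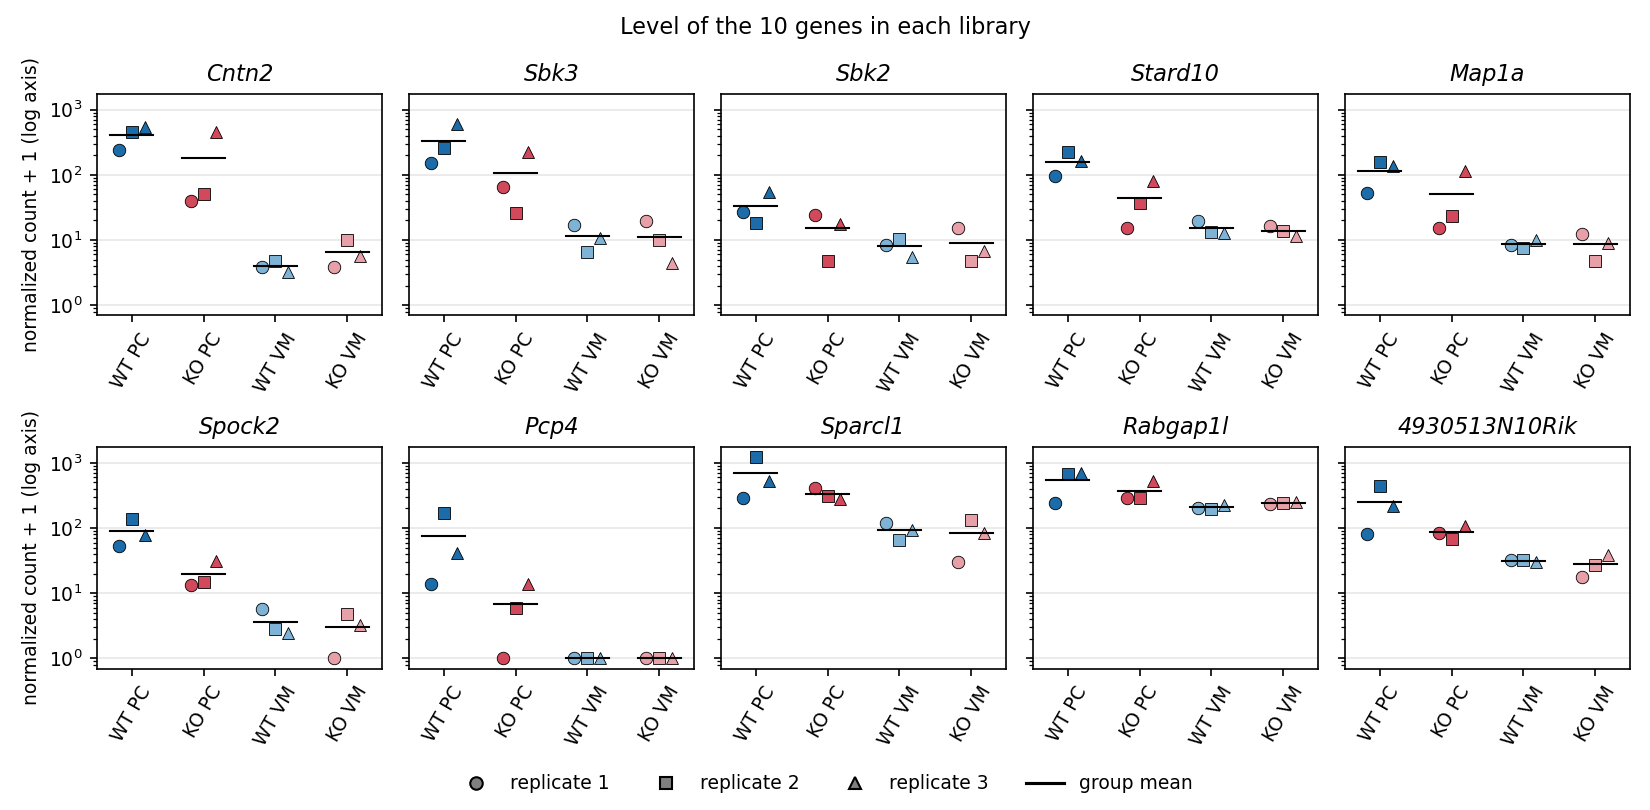
Normalized counts plus 1 on a log axis for each of the 10 genes, with 1 point per library by genotype and cell class, marker shape giving the replicate number and bars the group means. In 6 of the 10 panels all 6 PC libraries lie above all 6 VM libraries. The WT libraries among them were used to choose the genes and the share over all genes was not taken, so nothing is read from that count. For *Cntn2*, *Sbk3* and *Map1a* the library KO PC 3 lies far above KO PC 1 and 2.

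*Cntn2*, which encodes a contactin, an adhesion molecule of the immunoglobulin superfamily held in the membrane by a lipid anchor, lies at chr1:132509427-132543256 on the minus strand. Its normalized counts were 237, 451 and 533 in WT PCs, 38.7, 49.2 and 452 in KO PCs, 2.81, 3.76 and 2.22 in WT VMs, and 2.83, 8.99 and 4.63 in KO VMs. Each PC library lay above each VM library in both genotypes, and KO PC 3 sat within the WT PC range while KO PC 1 and 2 lay below it. KO PCs exceeded KO VMs by 5.05 ± 0.881 (SE) on the log2 scale (edgeR's quasi-likelihood test, Benjamini-Hochberg adjusted p = 0.0140). Counts in VMs were few, 10 in all over the WT VM libraries and 13 over the KO VM libraries, and the ratio of summed counts in PCs over VMs was 130.1 in WT hearts (95% exact interval 70.6 to 272) and 46.7 in KO hearts (27.1 to 88.1). These intervals cover counting error only. Since *Cntn2* sequences drove the reporter on which the cells were sorted, its excess in PCs describes the sort. Without KO VM 1, 2 or 3 the adjusted p of the edgeR quasi-likelihood test was 0.0946, 0.0602 or 0.0657, past the threshold of 0.05 in none of these cases. Without KO PC 3 the log2 fold change was 2.96 in place of 5.05 (adjusted p = 0.0154 by the same edgeR test).

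*Sbk3* and *Sbk2* encode serine/threonine kinases of the SH3-binding-domain kinase family, for which few substrates are known. *Sbk3* had normalized counts of 148, 257 and 592 in WT PCs, 63.3, 25.3 and 224 in KO PCs, 15.9, 5.65 and 9.61 in WT VMs, and 18.4, 8.99 and 3.47 in KO VMs. *Sbk2*, its neighbour, had 26.2, 17.6 and 52.6 in WT PCs, 22.9, 3.79 and 16.7 in KO PCs, 7.50, 9.41 and 4.44 in WT VMs, and 14.1, 3.85 and 5.79 in KO VMs. All PC libraries of *Sbk3* were above all VM libraries, while KO PC 2 of *Sbk2* fell below each KO VM library. *Sbk3* rose in KO PCs over KO VMs by 3.42 ± 0.685 (SE) on the log2 scale (edgeR's quasi-likelihood test, Benjamini-Hochberg adjusted p = 0.0262). For *Sbk2* the log2 fold change was 0.86 ± 0.755 (SE) and the same edgeR test gave an adjusted p of 0.798. Per kilobase of exon, the mean level in WT PCs was 104 ± 72.3 (SD, n = 3) for *Sbk3* and 10.2 ± 5.80 for *Sbk2*, and the ranges did not overlap. In VMs the pair lay closer, at 3.25 ± 1.62 and 2.26 ± 0.797 in WT and 3.22 ± 2.36 and 2.52 ± 1.74 in KO hearts, with overlapping ranges. The call for *Sbk3* was lost without KO PC 3 (adjusted p = 0.129 by edgeR's quasi-likelihood test) and without KO VM 1, 2 or 3 (0.0704, 0.117 and 0.110). It was also lost with DESeq2's Wald test (adjusted p = 0.0810). The log2 fold change of *Sbk3* was 2.09 without KO PC 3 and 4.11 without KO VM 1.

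*Stard10* (chr7:101317086-101346626, plus strand) encodes a lipid transfer protein with a START domain that binds phosphatidylcholine and phosphatidylethanolamine. Its normalized counts were 93.3, 222 and 161 in WT PCs, 14.1, 36.6 and 78.2 in KO PCs, 18.8, 12.2 and 11.8 in WT VMs, and 15.6, 12.8 and 10.4 in KO VMs. KO PC 1 lay within the range of both VM groups, and all 3 KO PC libraries lay below the lowest WT PC library. KO PCs differed from KO VMs by 1.79 ± 0.537 (SE) on the log2 scale, with an adjusted p of 0.161 in edgeR's quasi-likelihood test, and without KO PC 3 the log2 fold change was 1.01.

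*Map1a* (chr2:121289600-121310832, plus strand) encodes a microtubule-associated protein that stabilizes microtubules in neurons. Its normalized counts were 51.0, 154 and 133 in WT PCs, 14.1, 22.7 and 114 in KO PCs, 7.50, 6.59 and 8.87 in WT VMs, and 11.3, 3.85 and 8.10 in KO VMs. The 6 PC libraries lay above the 6 VM libraries, and KO PC 3 was again the KO PC library inside the WT PC range. The log2 fold change of KO PCs over KO VMs was 2.77 ± 0.696 (SE), with an adjusted p of 0.0847 in edgeR's quasi-likelihood test. DESeq2's Wald test placed it past the threshold (adjusted p = 0.0196), as did edgeR's test without KO PC 1 (adjusted p = 0.0446). Without KO PC 3 the log2 fold change of *Map1a* was 1.26 (adjusted p = 0.619 in edgeR's quasi-likelihood test), and with all 12 libraries in 1 edgeR fit the adjusted p was 0.183. *Map1a* overlaps *Ppip5k1* on the opposite strand by 272 bases, and the strand setting of the counting was not given in the sources used here.

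*Pcp4* (chr16:96467606-96525793, plus strand) encodes a small peptide that binds calmodulin and speeds its exchange of calcium. Its normalized counts were 13.1, 170 and 41.0 in WT PCs and 0, 5.05 and 12.7 in KO PCs, and each of the 6 VM libraries had 0 counts. WT PC 2, the library with the most unaligned pairs, was the highest, and all 3 KO PC libraries lay below the lowest WT PC library. Against a floor of 3 counts in each VM library, the mean was at least 28.5-fold higher in WT PCs and at least 1.53-fold higher in KO PCs. Without WT PC 2 the WT PC mean was 27.1 and the bound 10.3-fold, and without KO PC 3 the KO PC mean of 2.53 lay under the floor. With a mean under 5 over the 6 KO libraries, *Pcp4* was not tested in KO hearts.

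*Rabgap1l* (chr1:160219174-160793211, minus strand) encodes a GTPase-activating protein for Rab proteins, the switches of vesicle traffic. It had normalized counts of 242, 675 and 692 in WT PCs, 292, 287 and 522 in KO PCs, 201, 193 and 227 in WT VMs, and 233, 239 and 247 in KO VMs. Its fold between cell classes was the lowest of those fitted in either genotype, and WT PC 1 lay below KO VM 3 although no KO PC library did. The log2 fold change of KO PCs over KO VMs was 0.63 ± 0.214 (SE), with an adjusted p of 0.251 in edgeR's quasi-likelihood test.

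*Spock2* (chr10:60106219-60135198, plus strand) and *Sparcl1* (chr5:104079111-104113733, minus strand) encode secreted proteins of the SPARC family, testican-2, a proteoglycan of the extracellular matrix, and hevin, a matrix protein also made by vascular cells. *Spock2* had normalized counts of 51.4, 138 and 78.0 in WT PCs, 12.3, 13.9 and 30.7 in KO PCs, 4.69, 1.88 and 1.48 in WT VMs, and 0, 3.85 and 2.32 in KO VMs. Its PC libraries were all above its VM libraries, and all 3 KO PC libraries lay below the lowest WT PC library. *Spock2* had only 5 counts in all over the KO VM libraries, and the ratio of summed counts in KO PCs over KO VMs was 10.5 (95% exact interval 4.28 to 33.5, counting error only). Its log2 fold change was 3.13 ± 0.830 (SE), with an adjusted p of 0.107 in edgeR's quasi-likelihood test.

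*Sparcl1* had normalized counts of 293, 1237 and 529 in WT PCs, 417, 308 and 277 in KO PCs, 120.0, 64.0 and 93.9 in WT VMs, and 29.7, 134 and 82.2 in KO VMs. All 6 PC libraries were above all 6 VM libraries, and the KO PC libraries lay close together, KO PC 1 being the highest. *Sparcl1* rose in KO PCs over KO VMs by 2.01 ± 0.335 (SE) on the log2 scale (edgeR's quasi-likelihood test, Benjamini-Hochberg adjusted p = 0.0119), and without KO VM 3 the adjusted p was 0.0570. Sums of vascular markers moved with it in all groups but WT PCs. Summed endothelial markers were 2668, 1252 and 805 in KO PCs 1, 2 and 3 and 105, 493 and 432 in KO VMs 1, 2 and 3, and summed smooth muscle and pericyte markers were 2477, 1571 and 1004 against 253, 692 and 411. The order of libraries was the same for *Sparcl1* and both sums within KO PCs, within KO VMs and within WT VMs. Within WT PCs the orders differed. There the endothelial sum was 1170, 1746 and 1157 in WT PCs 1, 2 and 3, and the smooth muscle and pericyte sum 1410, 1276 and 1137. Within KO PCs the order for *Cntn2* was the opposite of that for *Sparcl1*. The single markers did not all follow the sums. Most of the smooth muscle and pericyte sum in KO PCs was *Rgs5*, at 1763, 1302 and 676 in KO PCs 1, 2 and 3. *Acta2*, on the same list, had 299, 121 and 235 there, another order. In KO PCs over KO VMs, all 8 endothelial markers tested were higher and 3 were called, and all 7 smooth muscle and pericyte markers tested were higher and 2 were called. *Cnn1* was the sole marker on these lists at 0 throughout KO VMs. Their part in the *Sparcl1* result was not tested.

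**Figure D2:**
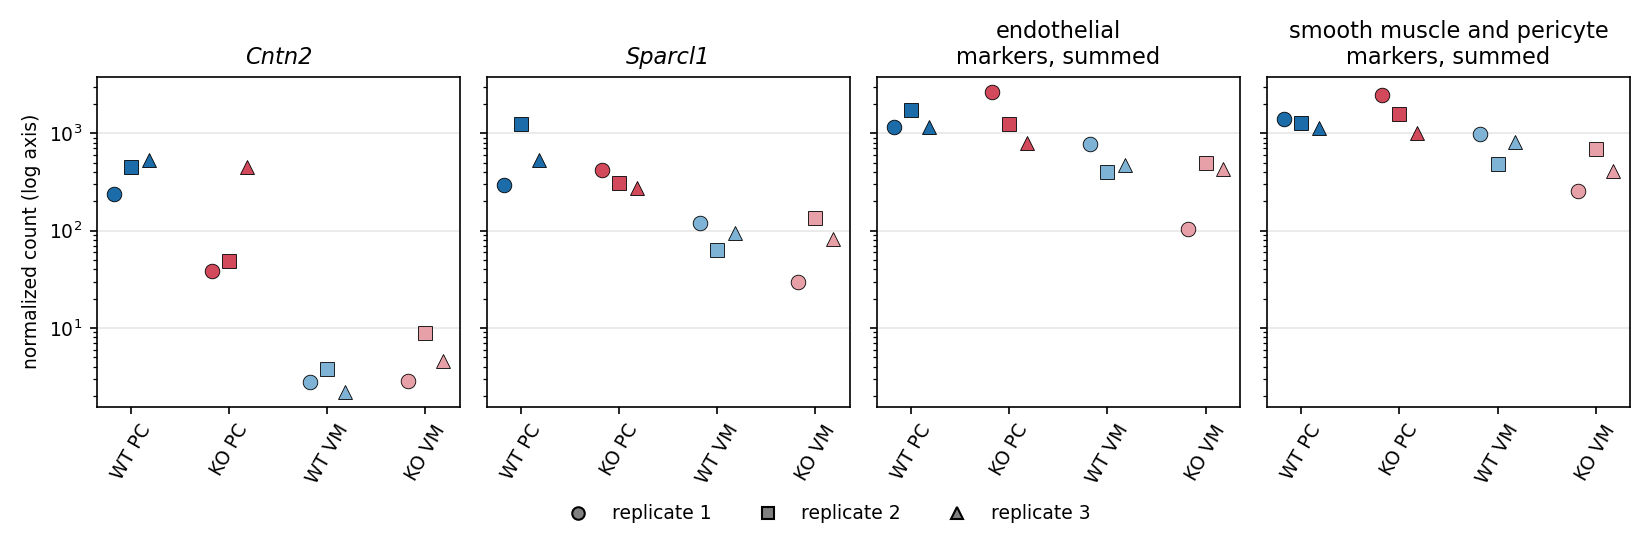
Normalized counts on a log axis for *Cntn2*, *Sparcl1*, the sum of 8 endothelial markers and the sum of 8 smooth muscle and pericyte markers, with 1 point per library and marker shape giving the replicate number. Within KO PCs, *Sparcl1* (417, 308 and 277) and both sums fall in the same order of libraries, and *Cntn2* (38.7, 49.2 and 452) runs the other way. Within WT PCs the order of *Sparcl1* differs from that of each sum.

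*4930513N10Rik* is annotated as an antisense RNA at chr8:95806744-95821728 on the plus strand, overlapping *Cnot1* on the other strand by 721 bases. On that other strand it also overlaps *Gm31659*, a long noncoding RNA, by 9723 bases of gene span, and *Gm31659* is not among the genes counted. Its normalized counts were 79.3, 441 and 220 in WT PCs, 82.6, 66.9 and 105 in KO PCs, 30.9, 31.1 and 28.8 in WT VMs, and 17.0, 25.7 and 38.2 in KO VMs. Every PC library was above every VM library, and WT PC 2 was the highest. *4930513N10Rik* rose in KO PCs over KO VMs by 1.64 ± 0.341 (SE) on the log2 scale (edgeR's quasi-likelihood test, Benjamini-Hochberg adjusted p = 0.0297). The call was lost whichever of the 6 libraries was left out, KO PC 1, 2 or 3 or KO VM 1, 2 or 3, with adjusted p between 0.0570 and 0.157 by the same edgeR test. Without strand, reads of *Cnot1* or *Gm31659* in the shared bases cannot be told apart from those of the antisense RNA.

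With 3 libraries against 3, the exact two-sided permutation test over 20 relabellings cannot give a p below 0.1. It gave 0.1 for the 7 genes whose KO PC and KO VM libraries did not overlap, 0.2 for *Stard10*, 0.4 for *Pcp4* and 0.5 for *Sbk2*. The fit across all genes borrows its estimate of spread from them, and so could pass the threshold where this test could not. The number of the 10 genes called in KO hearts fell to 0 without KO VM 3, to 1 without KO VM 1, to 1 without KO VM 2 and to 2 without KO PC 3.

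**Figure D3:**
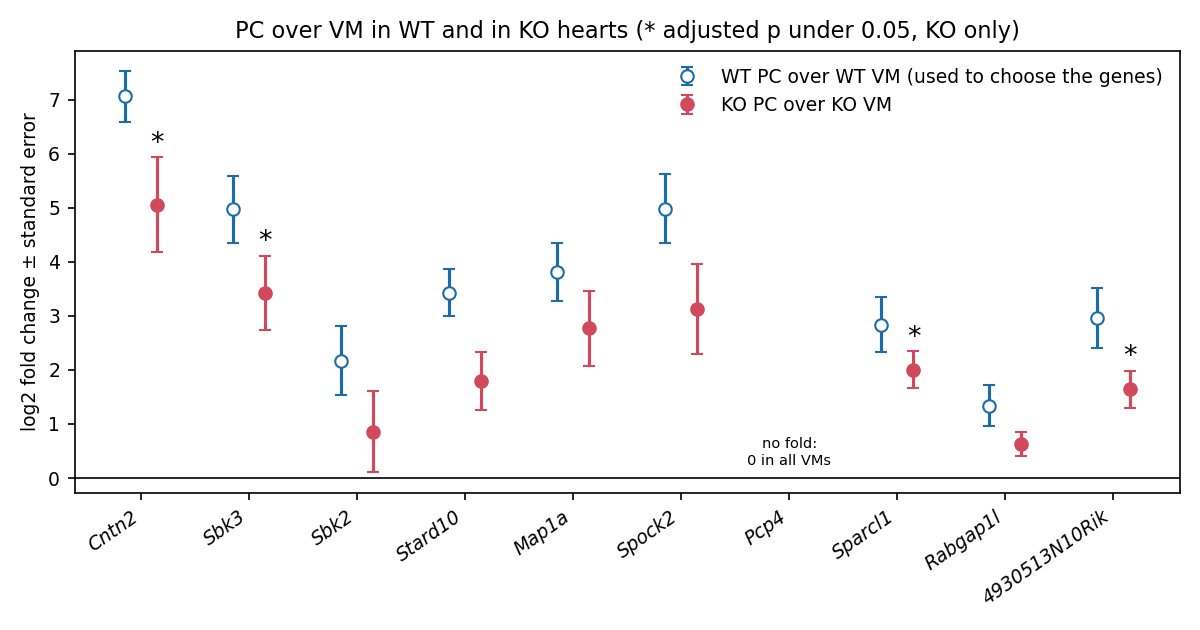
Log2 fold change of PCs over VMs, with its standard error, in WT hearts (open, the contrast used to choose the genes) and KO hearts (filled), with an asterisk where the adjusted p was under 0.05 in KO hearts. No fold is drawn for *Pcp4*, which had 0 counts in all VM libraries, and in KO hearts *Cntn2* (5.05) and *Sbk3* (3.42) have the largest values.

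Between genotypes, all 10 genes had a lower mean in KO PCs than in WT PCs, with log2 fold changes from -3.38 for *Pcp4* to -0.53 for *Rabgap1l* and a median of -1.34. A log2 fold change below 0 was found for 50.2% of the 11754 genes tested. Because the choice took genes that were high in the WT PC libraries, it favours a lower value in any other library, and no test is given. In bulk libraries like these, fewer cells of a type and less RNA per cell cannot be told apart. The ranges of KO PCs and WT PCs did not overlap for 3 genes, *Stard10*, *Spock2* and *Pcp4*, against 4.7% of all genes tested. For *Stard10* the mean was 42.95 ± 32.5 (SD, n = 3) in KO PCs and 159 ± 64.6 in WT PCs, and for *Spock2* it was 19.0 ± 10.2 and 89.3 ± 44.6. The other 7 genes overlapped, *Cntn2* with means of 180.1 ± 236 and 407 ± 153.

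Several of these differences moved with single libraries. Leaving out WT PC 2 brought the ratio of the KO PC mean to the WT PC mean from 0.0793 to 0.219 for *Pcp4*, from 0.487 to 0.812 for *Sparcl1* and from 0.344 to 0.567 for *4930513N10Rik*. Without that library, 4 genes did not overlap, *Sbk2* in addition to the 3 above. Leaving out KO PC 3 moved the ratio from 0.443 to 0.108 for *Cntn2*, from 0.313 to 0.133 for *Sbk3* and from 0.446 to 0.163 for *Map1a*. It also moved the ratio from 0.0793 to 0.0338 for *Pcp4* and from 0.270 to 0.159 for *Stard10*, and leaving out WT PC 3 moved that of *Sbk3* to 0.513. In 6 of the 10 genes, *Cntn2*, *Sbk3*, *Stard10*, *Map1a*, *Spock2* and *Pcp4*, KO PC 1 and 2 both lay below all WT PC libraries. For *Cntn2*, *Sbk3* and *Map1a*, KO PC 3 lay inside the WT PC range. The genes were chosen as high in WT PCs. The share over all genes was not taken for either omission, so nothing is read from these counts. The mean log2 level of each of the 10 genes was lower in KO PCs than in WT PCs whichever PC library was left out.

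In VMs the levels of KO and WT libraries mostly overlapped. Of the 10 genes, 9 overlapped between KO VMs and WT VMs, and *Rabgap1l* was higher in each KO VM library, with a log2 fold change of 0.20 ± 0.161 (SE), a difference without overlap that was seen for 4.6% of the 10737 genes tested there. The other log2 fold changes ran from -0.18 for *Sparcl1* to 0.14 for *Sbk2* over the genes with enough counts, and *Cntn2*, *Spock2* and *Pcp4* were under the filter in VMs.

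To see whether the 10 genes moved together within a group, each was followed relative to *Cntn2* in the same library, as the log2 ratio of normalized counts plus 2. KO PC 3 exceeded the mean of KO PC 1 and 2 by 10.3-fold for *Cntn2*, 6.21-fold for *Map1a*, 5.06-fold for *Sbk3*, 5.03-fold for *Pcp4* and 3.09-fold for *Stard10*. The fold was lower for *Spock2* (2.35), *Rabgap1l* (1.80), *4930513N10Rik* (1.40) and *Sbk2* (1.25), and for *Sparcl1* it was 0.765. On the log2 scale the same difference was 3.32 for *Cntn2* and -0.37 for *Sparcl1*, and its median over all genes tested was 0.01. KO PC 3 was thus the highest KO PC library for 7 of the 9 genes other than *Cntn2*, the exceptions being *Sbk2* and *Sparcl1*, for which KO PC 1 was the highest. Among WT PCs the order was another one: WT PC 1 was the lowest library for *Cntn2* and for 8 of the 9 others, all but *Sbk2*, and WT PC 2 was the highest for 6 of the 9.

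**Figure D4:**
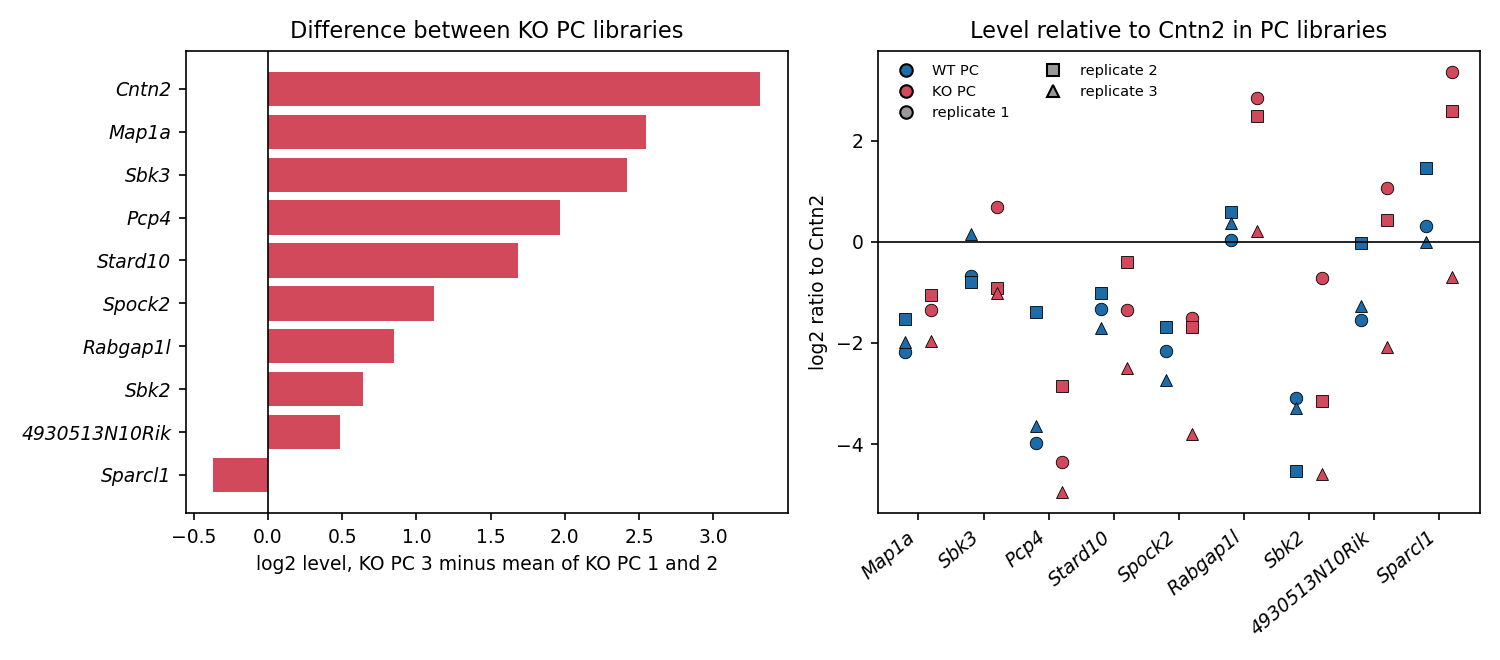
Left, log2 level (normalized count plus 2) in KO PC 3 minus the mean of KO PC 1 and 2 for each gene, and right, the log2 ratio of each gene to *Cntn2* in the 6 PC libraries, coloured by genotype with marker shape giving the replicate. The difference falls from 3.32 for *Cntn2* to -0.37 for *Sparcl1*, and for all 9 genes the ratios in WT and KO PCs overlap.

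The ratio to *Cntn2* overlapped between WT PCs and KO PCs for all 9 genes. For *Sbk3* its mean was -0.44 ± 0.516 (SD, n = 3) in WT PCs and -0.41 ± 0.949 in KO PCs, a difference of 0.03. For *Map1a* the means were -1.90 ± 0.326 and -1.45 ± 0.468, and for *Stard10* they were -1.35 ± 0.351 and -1.42 ± 1.05. *Map1a* had the narrowest range of ratios over KO PCs, 0.92 on the log2 scale, where its own level ranged over 2.86. *Sparcl1* had the widest, 4.07, where its own level ranged over 0.58. The ratio ranged more widely than the level itself in KO PCs for 5 of the 9 genes, *Sbk2*, *Spock2*, *Sparcl1*, *Rabgap1l* and *4930513N10Rik*. The highest mean difference between genotypes, 1.52 for *Rabgap1l*, compares 0.33 ± 0.276 in WT PCs with 1.85 ± 1.44 in KO PCs, where KO PC 1 and 2 had ratios of 2.85 and 2.49 and KO PC 3 had 0.21.

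Per kilobase of exon, *Sparcl1* had the highest mean of the 10 genes in every group, 234 ± 167 (SD, n = 3) in WT PCs, 114 ± 24.9 in KO PCs, 31.5 ± 9.55 in WT VMs and 27.9 ± 17.7 in KO VMs. Below it in WT PCs came *Sbk3*, *Pcp4*, *Stard10*, *4930513N10Rik*, *Cntn2*, *Rabgap1l*, *Spock2*, *Sbk2* and *Map1a*, and no gene there was separated from the next by more than the ranges of the libraries. Without WT PC 2 the mean of *Sparcl1* there was 140.1, still the highest, and *Pcp4* went from rank 3 to rank 6. In KO PCs the only such gap was the one between *Sparcl1* and *Sbk3*, which had 32.6 ± 32.98. In WT VMs *Sparcl1* and then *Rabgap1l* (8.91 ± 0.770) each stood clear of the next gene, as did *Sbk2* (2.26 ± 0.797) of *Map1a* (0.629 ± 0.0946), and *Cntn2* (0.315 ± 0.0838) and *Pcp4* (0) came last. In KO VMs the gaps below *Rabgap1l* (10.3 ± 0.286) and *Sbk2* were present as well.

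Among 8099 genes with a mean normalized count above 20, those whose centred log2 levels over the 12 libraries lay closest to *Cntn2* were *Scn10a*, with a root mean square difference of 0.703, *Drd2* with 0.754, *Sema3a* with 0.915, *Slit2* with 0.986 and *Vcan* with 1.03, where the median gene had 2.82. The measure is a description over libraries that share the 2 sort classes. *Sbk3* ranked 7 and *Spock2* 8 by this measure, followed by *Pcp4* at 12, *Map1a* at 13, *Stard10* at 17, *4930513N10Rik* at 23 and *Sparcl1* at 25. *Rabgap1l* ranked 170, and *Sbk2* was under the limit on mean level. *Scn10a*, which encodes a sodium channel, had KO PC values of 28.1, 22.7 and 93.6, with KO PC 3 the highest as for *Cntn2*.

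Relatives of the 10 genes were followed in the same fits. The 7 lists held contactins and their partners, SBK and related kinases, START domain lipid transfer proteins, microtubule-associated proteins, the SPARC and testican family, calmodulin and its neuronal buffers, and Rab GTPase-activating proteins. Of 115 genes, 114 were found and 71 were tested in KO PCs against KO VMs, where 2 were called, both higher, against 0.872% of all genes called in either direction. They were *Sparc* and *Map1b*. The 71 had a median log2 fold change of 0.03.

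*Sparc*, which encodes the collagen-binding protein that gives the family its name, had normalized counts of 341, 283 and 315 in KO PCs and of 55.2, 103 and 109 in KO VMs, without overlap. It rose by 1.80 ± 0.229 (SE) on the log2 scale (edgeR's quasi-likelihood test, Benjamini-Hochberg adjusted p = 0.00188). Sums of fibroblast and leukocyte markers showed the same excess in PCs, but neither followed the library order of *Sparc* within KO PCs or within KO VMs. In KO PCs 1, 2 and 3 the fibroblast sum was 1069, 920 and 668, and the leukocyte sum 269, 308 and 268. In KO VMs 1, 2 and 3 they were 72.1, 344 and 288, and 15.6, 78.3 and 76.4. KO VM 1 was the lowest KO VM library for *Sparc* and for both sums. Summed fibroblast markers were 668 to 1069 in KO PCs and 72.1 to 344 in KO VMs, with all 7 tested higher, 3 called and a median log2 fold change of 1.87. Summed leukocyte markers were 268 to 308 and 15.6 to 78.3, with all 4 tested higher, 1 called and a median of 2.39. None of the 8 fibroblast markers was at 0 throughout KO VMs, whereas the leukocyte marker *Adgre1* was. Their part in the *Sparc* result was not tested. *Map1b*, the closest relative of *Map1a*, had 174, 83.3 and 160.4 in KO PCs and 29.7, 38.5 and 46.3 in KO VMs and rose by 1.85 ± 0.308 (edgeR's quasi-likelihood test, Benjamini-Hochberg adjusted p = 0.0119). For *Map1b* KO PC 3 did not stand apart from KO PC 1, unlike for *Map1a*. The count of 2 relatives called fell to 1 without KO VM 1 or without KO VM 2, and to 0 with all 12 libraries in 1 fit. It was 4 with DESeq2's Wald test and 6 with no filter on low counts.

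Of the most abundant genes of the lists without a call, 9 are given here, with log2 fold changes of KO PCs over KO VMs between -0.19 and 0.42. *Dlg1* and *Epb41l3*, scaffold proteins on the contactin list, had log2 fold changes of -0.07 ± 0.161 (SE) and -0.14 ± 0.289, and the kinase genes *Mylk3* and *Camk2d* -0.14 ± 0.136 and -0.01 ± 0.147. *Dlc1* and *Stard7* of the START list had 0.42 ± 0.168 and -0.15 ± 0.155. *Pcp4l1*, the closest relative of *Pcp4*, had -0.11 ± 0.296. Unlike *Pcp4*, *Pcp4l1* was present in every library, from 410 to 1082 normalized counts in KO VMs and from 428 to 905 in KO PCs. *Tbc1d4* and *Rab6a* had -0.19 ± 0.147 and -0.04 ± 0.182. None of these 9 genes passed the adjustment in edgeR's test.

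**Figure D5:**
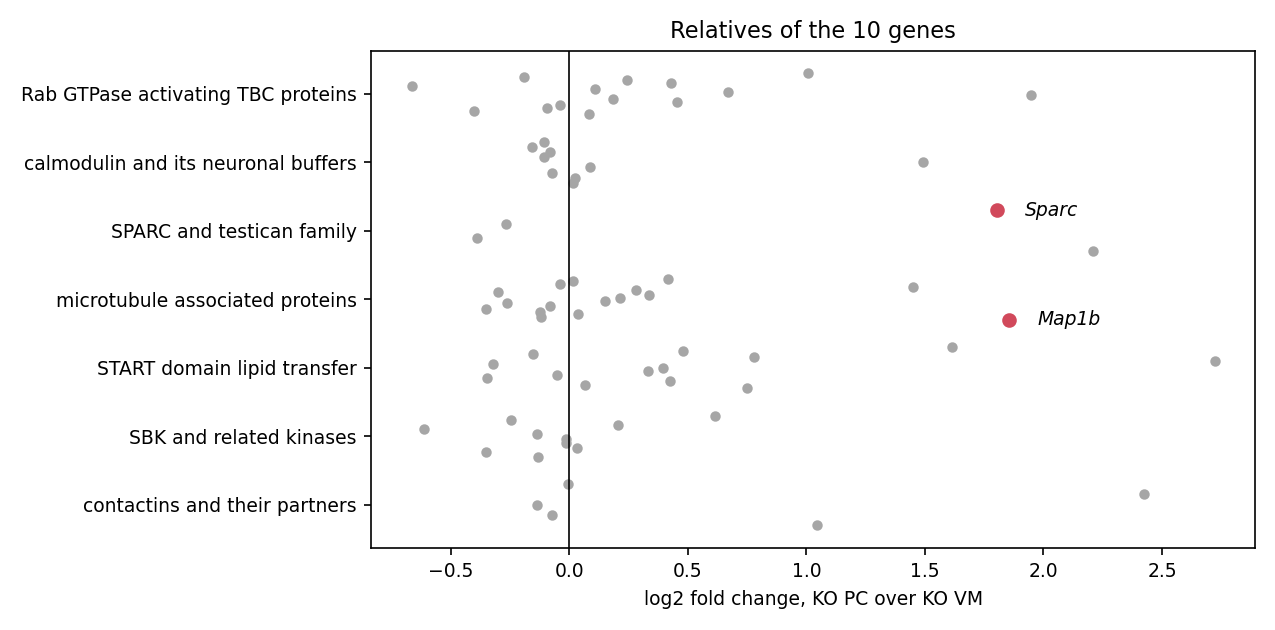
Log2 fold change of KO PCs over KO VMs for the 71 relatives tested, 1 point per gene in 7 rows by list, spread vertically only to separate points. The genes called, *Sparc* (1.80) and *Map1b* (1.85), are coloured and named.

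In WT PCs against WT VMs, 0 of the 77 relatives tested were called by edgeR's quasi-likelihood test, where 0.11% of all genes were, 10 had an unadjusted p under 0.05, all higher in PCs, against 5.14% of all genes, and DESeq2's Wald test called 4. In KO PCs against WT PCs, 0 of the 79 relatives tested were called by edgeR or by DESeq2, where edgeR called 0 of all genes, and 1 had an unadjusted p under 0.05, against 3.22% of all genes tested. That gene, named because it is a single count, was *Rab6b*, with 17.9, 0 and 2.31 in WT PCs and 10.5, 51.8 and 58.8 in KO PCs. The median log2 fold change of the relatives between KO and WT PCs was 0.02. The 10 genes were chosen as high in WT PCs, which favours a lower value in KO PCs, so their median is not set beside it.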

How the data were processed

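RNA of sorted cells was sequenced by the authors as 50 bp paired-end reads, aligned with STAR (v2.5.0c) to mm10 and counted with HTSeq (v0.6.0). The deposited values are raw counts per gene without normalization, and the HTSeq classes of pairs in no gene (40.0% to 73.6% of pairs) were left out. Groups came from the sample titles.

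Normalized counts are counts divided by the TMM effective library size, times the geometric mean of these sizes over 12 libraries. Each comparison took its own 6 libraries, required a mean normalized count over 5, and used edgeR 4.0.16 in R 4.3.3 (glmQLFit, glmQLFTest), with p-values adjusted by Benjamini-Hochberg across every gene tested and a threshold of 0.05. Permutation tests and ratios used log2 of the normalized count plus 2. A VM group at 0 was set to a floor of 3 counts per library. Positions are from GENCODE M21 (GRCm38).

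The 10 genes and all lists were chosen with earlier results of these data known. Named are these 10, *Ncam1*, the relatives called in a comparison or else the 2 most abundant of each list, the 5 genes nearest to *Cntn2*, and markers, apart from items that are not reported here. Same-numbered PC and VM libraries are not stated to share hearts, and their deviations over 8080 genes correlated by -0.01, 0.12 and 0.02 in KO and 0.21, 0.08 and 0.15 in WT hearts, so the numbers were not taken to pair them. Replicates differed by more than sampling noise (lowest chi-square per degree of freedom, 4.22). The steps were tested on simulated data. Alternatives were DESeq2 1.42.0, other normalizations and filters, a fit of all 12 libraries, a replicate block, other pseudocounts and the omission of each library.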

Additional observations from a re-analysis of the deposited data

How the results depend on the processing

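The number of genes called in KO PCs against KO VMs was 94 (93 higher, 1 lower), and of the 10 genes 4 were called. With no filter on low counts these were 326 and 8, and with all 12 libraries in 1 fit 8 and 1, the call kept there being *Cntn2*. Leaving out a library gave 19 to 150 genes and 0 to 4 of the 10. The direction of each of the 9 genes tested was the same under every alternative that gave a value. DESeq2 gave no adjusted p for *Cntn2*, and *Spock2* could not be fitted with filterByExpr or without KO PC 3, where it was under the filter. With no filter, *Stard10*, *Map1a*, *Spock2* and *Rabgap1l* passed the threshold, and with all 12 libraries in 1 fit *Sbk3*, *Sparcl1* and *4930513N10Rik* had adjusted p of 0.130, 0.149 and 0.315. Of the relatives in WT PCs against WT VMs, 0 were called, 4 with DESeq2, 6 with no filter, 1 with all 12 libraries in 1 fit, and 0 to 3 when a library was left out (3 without WT PC 2). In KO PCs against WT PCs, 0 relatives were called under every alternative, and all 10 genes stayed lower in KO PCs under each normalization, pseudocount and omission tried. The choice of genes high in WT PCs favours that direction, so nothing is read from its persistence. The cause of these changes was not tested, beyond the fewer libraries or other genes that each alternative uses.

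The replicate block is given only here, because the numbers are not known to pair libraries. With it, 121 genes and 4 of the 10 were called in KO PCs against KO VMs, and 0 relatives in either other comparison. Depth limits *Pcp4*, *Cntn2* and *Spock2* in VMs, where libraries held 0 to 7 counts.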
